A study of Mus musculus with 7 samples.

Results

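The motile cilium and axoneme genes were 32 genes listed by the structure their protein belongs to, of 32285 genes counted. All 32 were found in the deposited counts by Ensembl identifier and symbol. They were grouped as 5 outer dynein arm genes, 5 inner dynein arm genes, 3 radial spoke genes, 6 central pair genes, 4 genes of the nexin-dynein link and the axonemal ruler, 5 doublet wall and tektin genes, 1 assembly factor and 3 transcriptional regulators. Of these, 31 had enough reads to be tested, as did 17155 genes in all.

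Utricles of wild-type mice at postnatal day 2 were explanted, their otoconia removed, and cultured in serum-free medium. All groups received 2 mM gentamicin, an aminoglycoside that kills hair cells, for 24 h, and were collected at day 5 post-injury. The Gent+Fos OE group (4 libraries) also received an AAV-PHP.eB vector that carries mouse Fos for 48 h, and the Gent group (3 libraries) is labelled with gentamicin only. There was no undamaged group in the comparison described here, and the question was how the transcriptome of damaged utricles differed with the Fos vector. By the study's methods a CMV promoter, which is not restricted to 1 cell type, drove Fos. A library holds the RNA of 12 utricles, and its replicate error is therefore that of pools, not of single animals. The names of the deposited Gent counts carry letters that can also stand for shRNA, so whether Gent utricles received a virus is not settled. If they did not, effects of the vector and of the added Fos cannot be told apart here.

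An axoneme is the microtubule core of a cilium, in which doublet microtubules surround a central pair. Outer and inner dynein arms are the motors that slide the doublets, radial spokes carry signals between the central pair and the doublets, and nexin-dynein links hold neighbouring doublets together. In the vestibular organs each hair cell bears a kinocilium with this architecture beside its stereocilia. Foxj1 is the forkhead factor that directs motile cilium genes, and the regulatory factor X (RFX) proteins Rfx2 and Rfx3 act with it.

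Library totals ran from 27879889 to 34335214 counts. Fos lay between 149 and 167 CPM (a gene's share of a library's reads, scaled after TMM normalization) in Gent+Fos OE and between 34.6 and 40.6 CPM in Gent, as the labels say. Genes were compared by edgeR's quasi-likelihood test, with p-values adjusted by Benjamini-Hochberg over all tested genes, and called when the adjusted p was under 0.01 with an absolute log2 fold change over 0.25, always Gent+Fos OE over Gent. At these limits 0.414% of all tested genes were called. Gent replicate 2 stood apart by gene length. Across the tested genes its deviation from the mean of the 7 libraries had a Spearman's rho of -0.50 with gene length, against -0.23 to 0.32 in the other 6 libraries. Since dynein heavy chain genes are long and tektin genes short, the main results are also given after each library's trend with length was removed. Of 20 hair cell markers 19 were tested, and their summed level was 963 to 1209 CPM in Gent+Fos OE and 787 to 970 CPM in Gent. In that list 9 genes were higher and 1 lower at an unadjusted p under 0.05, against 11.1% and 13.4% of all genes, with a median log2 fold change of 0.23. After removal of length trends 4 were higher and 2 lower, against 7.94% and 15.7% of all genes, with a median of 0.17. Before that removal Pcdh15, of the tip link and 23773 bp long, had the largest value (1.08, SE 0.21, adjusted p = 0.0288). Kcna10, a potassium channel gene, had the lowest (-0.77, SE 0.19, adjusted p = 0.0691). With length trends removed Pcdh15 was at 0.56 (adjusted p = 0.0354), Pvalb of the same list at 0.96 (adjusted p = 0.0546) and Kcna10 at -0.63 (adjusted p = 0.0483). More hair cells and more RNA per hair cell cannot be told apart in such bulk libraries, and the part that hair cell number has in the values below was not tested.

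One axoneme gene was called. Ccdc153, which encodes a coiled-coil subunit of the nexin-dynein regulatory complex (Drc12), was 6.89-fold higher in Gent+Fos OE. Its Gent libraries held 8 to 13 reads, it passed the filter on low counts through Gent+Fos OE, and with 1 library left out at a time it stayed called in 1 of 7 fits. The next largest values, each a little over 2-fold, were those of the heavy chain gene Dnah11, of Cfap44, a component of the tether of the inner arm motor, and of the heavy chain genes Dnah5 and Dnah2. These 4 passed an adjusted p under 0.05 without passing 0.01, and with 1 library left out at a time Dnah5, Dnah2 and Cfap44 each missed 0.05 in 4 of 7 fits and Dnah11 in 1 of 7. After length trends were removed, the log2 fold change of Cfap44 (0.90) was above that of Dnah11 (0.79). The short genes of the doublet wall, the intermediate chain Dnai1 and the assembly factor Zmynd10 had values below 0 with unadjusted p over 0.05.

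Over the list, 1 of the 31 tested genes was called, against 0.414% of all genes. That gene is Ccdc153, and with at least 10 counts asked of every library, which removes it, 0 were called. At an adjusted p under 0.05 with no fold limit, 5 were higher and 0 lower, where 0.665% of all genes were called higher. By unadjusted p under 0.05, 12 were higher and 0 lower, against 11.1% of all genes higher and 13.4% lower. Of these 12, 8 are over 10 kb, where 36.5% of all genes were higher by that p. The list was chosen with earlier results of these data known, so shares over the list are a description. In 13 genes the lowest Gent+Fos OE value exceeded the highest Gent value, and in 0 genes the reverse held, against 11.3% and 12.2% of all genes. With DESeq2 at the limits of the main test 7 genes were called, all higher (Dnah5, Dnah11, Dnah2, Cfap43, Cfap44, Ccdc39 and Ccdc153), where it called 3.90% of the genes it adjusted. The median log2 fold change was 0.25 over the 31 genes and 0.00 over all tested genes. In summed reads the 32 genes took 723 to 877 CPM in Gent+Fos OE and 505 to 647 CPM in Gent, so the groups did not overlap. Dnah11 alone gave 111 to 151 CPM of these sums in Gent+Fos OE.

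**Figure D1:**
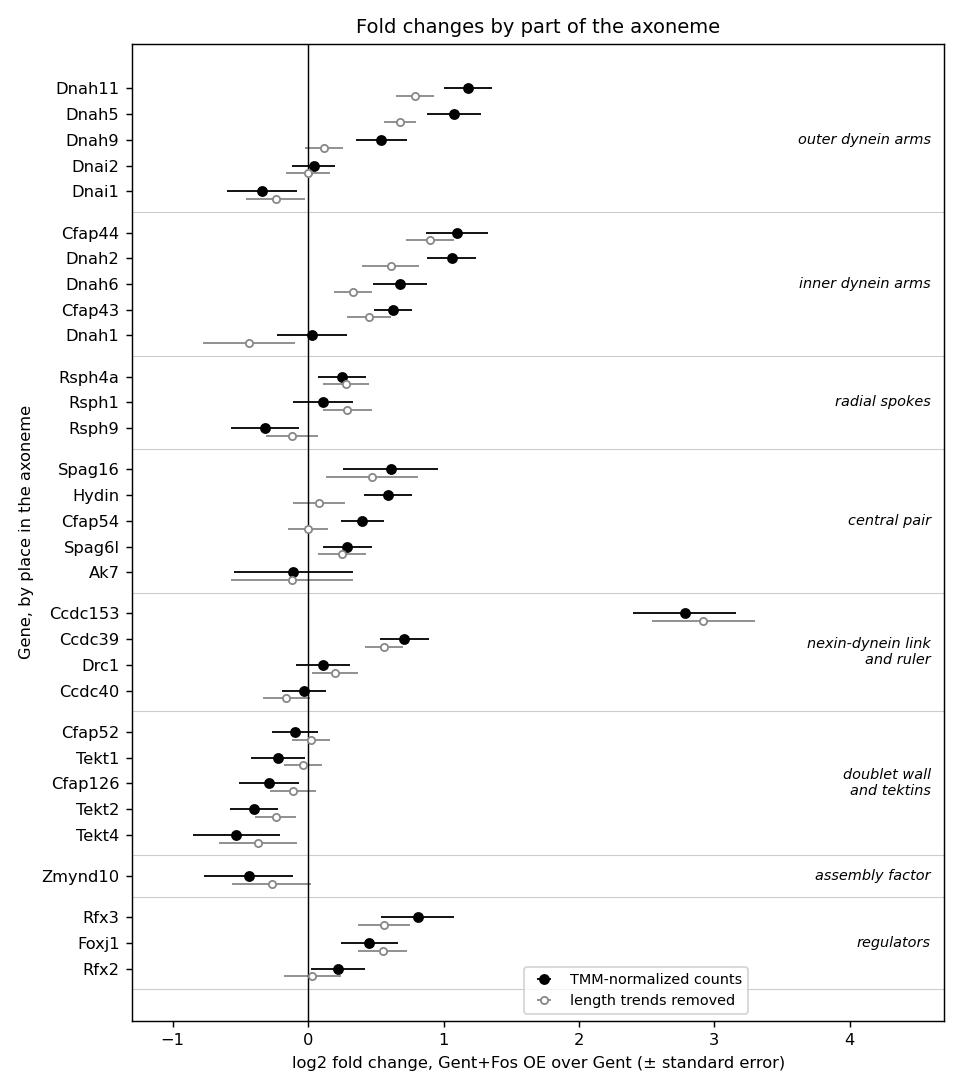
Log2 fold change of Gent+Fos OE over Gent with its standard error (x axis) for the 31 tested axoneme genes (y axis), grouped by structure; black, TMM-normalized counts, and open grey, after length trends were removed. Ccdc153 lies at 2.78, 5 of 6 heavy chains lie between 0.54 and 1.18, and the 5 doublet wall genes lie between -0.53 and -0.10.

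The promoter windows of the 5 genes that passed an adjusted p under 0.05 are printed because these are the genes the comparison turns on. They are from RefSeq on GRCm38.p6, the same build as the mm10 coordinates of the counts, and run 5′ to 3′ along the gene from 250 bases before its start to 50 after. Windows were matched for 26 of the 32 genes, and those of Dnai1, Dnai2, Rsph1, Rsph4a, Cfap54 and Foxj1 were not analysed here. Capitals mark an AP-1 motif (TGANTCA, the form searched for Fos with its partners) or an X-box (the palindrome-like RFX motif). They also mark an RFX core (GTTGCC, the arm of the X-box) or a forkhead core (GTAAACA). Each was searched on both strands. An RFX core may lie within an X-box.
Ccdc153, chr9:44240427-44240726, plus strand: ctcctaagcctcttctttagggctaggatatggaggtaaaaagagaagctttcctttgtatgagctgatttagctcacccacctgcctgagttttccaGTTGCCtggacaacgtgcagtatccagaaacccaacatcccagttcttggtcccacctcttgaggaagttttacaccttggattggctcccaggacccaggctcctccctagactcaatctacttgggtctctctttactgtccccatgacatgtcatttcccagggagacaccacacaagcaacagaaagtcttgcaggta
Dnah11, chr12:118198994-118199293, minus strand: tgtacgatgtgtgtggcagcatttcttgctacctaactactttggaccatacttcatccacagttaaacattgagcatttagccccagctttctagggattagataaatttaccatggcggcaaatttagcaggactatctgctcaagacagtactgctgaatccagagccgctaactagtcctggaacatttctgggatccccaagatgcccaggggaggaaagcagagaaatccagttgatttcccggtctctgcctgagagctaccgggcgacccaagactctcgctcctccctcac
Dnah5, chr15:28203516-28203815, plus strand: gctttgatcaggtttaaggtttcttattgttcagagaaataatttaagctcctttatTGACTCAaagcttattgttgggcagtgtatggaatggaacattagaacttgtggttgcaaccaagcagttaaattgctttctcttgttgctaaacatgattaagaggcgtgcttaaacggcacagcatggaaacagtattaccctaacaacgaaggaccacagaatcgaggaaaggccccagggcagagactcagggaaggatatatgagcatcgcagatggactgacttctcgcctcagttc
Dnah2, chr11:69549059-69549358, minus strand: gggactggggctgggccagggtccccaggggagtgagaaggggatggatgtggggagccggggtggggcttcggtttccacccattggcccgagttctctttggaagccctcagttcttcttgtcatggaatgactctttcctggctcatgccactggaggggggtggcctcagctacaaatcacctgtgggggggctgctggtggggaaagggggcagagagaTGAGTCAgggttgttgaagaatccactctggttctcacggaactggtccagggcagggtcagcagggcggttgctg
Cfap44, chr16:44394549-44394848, plus strand: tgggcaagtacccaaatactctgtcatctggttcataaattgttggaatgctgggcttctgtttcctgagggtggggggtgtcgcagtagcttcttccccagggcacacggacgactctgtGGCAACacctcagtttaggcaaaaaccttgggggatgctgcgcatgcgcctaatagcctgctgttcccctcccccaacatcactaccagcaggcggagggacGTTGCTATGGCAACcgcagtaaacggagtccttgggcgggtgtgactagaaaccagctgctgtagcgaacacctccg
The Ccdc153 window held 1 RFX core, the first base of which lies 152 bases before the start. Cfap44 held 1 X-box that begins 27 bases before the start, with 1 RFX core inside it and 1 farther upstream. Dnah2 held 1 AP-1 motif that begins 26 bases before the start and Dnah5 held 1 that begins 193 bases before it, while none of the 4 motifs was found in the Dnah11 window. Over the 26 genes an X-box was found in 3 (Cfap44, Hydin and Spag16), or 11.5% (95% exact binomial interval 2.45 to 30.2%, counting error only), against 0.796% of 27025 genes with a window. An RFX core was found in 12 genes, or 46.2% (26.6 to 66.6%), against 14.1% of all. AP-1 motifs were found in 5 genes (Dnah2, Dnah5, Drc1, Hydin and Rfx3), or 19.2% (6.55 to 39.4%), against 8.97% of all. Those of Hydin and Rfx3 read TGAATCA, and those of the other genes TGAGTCA or TGACTCA. Forkhead cores were found in 2 (Ak7 and Cfap43), or 7.69% (0.946 to 25.1%), against 4.05%. In the last 100 bases before the start, the AP-1 share was 3.85% against 3.18% of all genes, and the RFX core share 19.2% against 5.46%.

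The outer dynein arm heavy chains Dnah5, Dnah9 and Dnah11 were all higher in every Gent+Fos OE library than in any Gent library, as were 11.3% of all genes and 32.8% of those over 10 kb, where all 3 lie. Dnah11 (ENSMUSG00000018581, chromosome 12, 117877982 to 118199043 on mm10) gave 122, 151, 132 and 111 CPM in Gent+Fos OE replicates 1 to 4 and 58.5, 41.9 and 70.2 CPM in Gent replicates 1 to 3. The lowest Gent+Fos OE value was well above the highest Gent value. This is a log2 fold change of 1.18 (SE 0.18, adjusted p = 0.012), and 0.79 (SE 0.14, adjusted p = 0.0112) with length trends removed. Without Gent replicate 2 it was called, at 1.00 (adjusted p = 0.00311). With each other library left out it was not called (adjusted p = 0.0205 to 0.0551, the highest without Gent+Fos OE replicate 3). Dnah11 is the proximal outer arm heavy chain, and its exons share 4.44% of their bases with Cdca7l, where reads were not counted.

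Dnah5, the heavy chain found along the whole axoneme (ENSMUSG00000022262, chromosome 15, 28203752 to 28472052), gave 43.5, 49.3, 44.9 and 36.3 CPM in Gent+Fos OE and 24.8, 14.0 and 23.0 CPM in Gent. It differed by 1.08 on the log2 scale (SE 0.20, adjusted p = 0.0262), and by 0.68 (SE 0.12, adjusted p = 0.014) with length trends removed. It was called without Gent replicate 2 (0.86, adjusted p = 0.00707), but without Gent+Fos OE replicate 1, 2 or 3 or Gent replicate 3 the adjusted p was 0.0909, 0.0768, 0.101 and 0.0643. Dnah9, the distal outer arm heavy chain (chromosome 11, 65831282 to 66168551), gave 27.7, 31.6, 24.6 and 21.4 CPM against 19.5, 13.6 and 21.0 CPM. The groups just failed to overlap, the log2 fold change was 0.54 (SE 0.19, adjusted p = 0.135), and with length trends removed 0.12 was left (adjusted p = 0.647). All 3 heavy chains were lowest in Gent replicate 2.

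The intermediate chains of the same arm overlapped between groups, and their difference from the heavy chains was not tested. Dnai1 (2782 bp of exons) gave 21.3, 31.4, 29.5 and 29.6 CPM in Gent+Fos OE and 21.8, 52.4 and 31.8 CPM in Gent (log2 fold change -0.34, SE 0.26, adjusted p = 0.423). Its highest value was that of Gent replicate 2, without which the difference was 0.06. Dnai2 differed by 0.04 (SE 0.16), and by 0.21 without Gent replicate 2.

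Among the inner arm genes, 4 of 5 were higher at an unadjusted p under 0.05 and also separated by group, against 11.1% and 11.3% of all genes. Of the 5, Dnah1, Dnah2 and Dnah6 are over 10 kb, where 36.5% and 32.8% of all genes did so. Dnah2 (ENSMUSG00000005237, chromosome 11, 69420809 to 69549110), an inner arm f heavy chain, gave 17.0, 16.3, 13.6 and 11.5 CPM in Gent+Fos OE and 6.85, 7.24 and 6.90 CPM in Gent. The 3 Gent libraries lay close together, Gent replicate 2 among them. The log2 fold change was 1.06 (SE 0.18, adjusted p = 0.0158), or 0.61 (SE 0.21, adjusted p = 0.117) with length trends removed. Without Gent+Fos OE replicate 1, 2 or 3 or Gent replicate 3 the adjusted p was 0.0523 to 0.0638. Dnah6, a single-headed inner arm heavy chain (chromosome 6, 73017606 to 73221651), gave 33.9, 43.3, 39.7 and 29.5 CPM against 26.4, 16.1 and 26.3 CPM, which is 0.68 (SE 0.20, adjusted p = 0.107), or 0.33 with length trends removed. Dnah1, also a single-headed inner arm chain, differed by 0.03 (SE 0.26) and was highest, at 8.62 CPM, in Gent replicate 2. Of the 9 axoneme genes over 10 kb, it was the 1 gene in which that library was highest.

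Cfap43 and Cfap44 form the tether that holds the head of the f arm to the doublet. Cfap44 (ENSMUSG00000071550, chromosome 16, 44394796 to 44482428) gave 16.6, 22.3, 16.8 and 12.5 CPM in Gent+Fos OE and 9.45, 5.90 and 8.61 CPM in Gent. The difference was 1.10 on the log2 scale (SE 0.23, adjusted p = 0.0419) and 0.90 (SE 0.18, adjusted p = 0.0259) with length trends removed. Without Gent+Fos OE replicate 1, 2 or 3 or Gent replicate 3 the adjusted p was 0.0935 to 0.129. Cfap43 (chromosome 19, 47736857 to 47919287) gave 41.6, 49.0, 43.9 and 46.0 CPM against 23.7, 30.9 and 32.8 CPM. Gent replicate 1, not replicate 2, was its lowest library. It differed by 0.63 (SE 0.14, adjusted p = 0.0551), by 0.45 with length trends removed (adjusted p = 0.127), and by 0.67 without Gent replicate 2 (adjusted p = 0.0297).

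The heavy chains are of like length, from 13043 to 15949 bp. Ratios to Dnah9 were taken on raw counts after the values had been seen, with Dnah9 known to have a smaller fold change than Dnah11 and Dnah5, so they are a description with no test. The Dnah11 to Dnah9 ratio was 4.42, 4.77, 5.37 and 5.20 in Gent+Fos OE and 3, 3.07 and 3.35 in Gent. No Gent library reached the lowest Gent+Fos OE ratio, and Gent replicate 2 lay between the other Gent libraries. The Dnah5 to Dnah9 ratio was 1.57, 1.56, 1.83 and 1.70 against 1.27, 1.03 and 1.10, also without overlap. Dnah2 to Dnah9 was 0.555 ± 0.043 (SD, n = 4) in Gent+Fos OE and 0.404 ± 0.111 (SD, n = 3) in Gent. These overlapped, since Gent replicate 2 (0.532) lay above Gent+Fos OE replicate 2 (0.515). Dnah6 to Dnah9, at 1.40 ± 0.161 (SD, n = 4) and 1.26 ± 0.0852 (SD, n = 3), and Dnah1 to Dnah9 overlapped too.

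**Figure D2:**
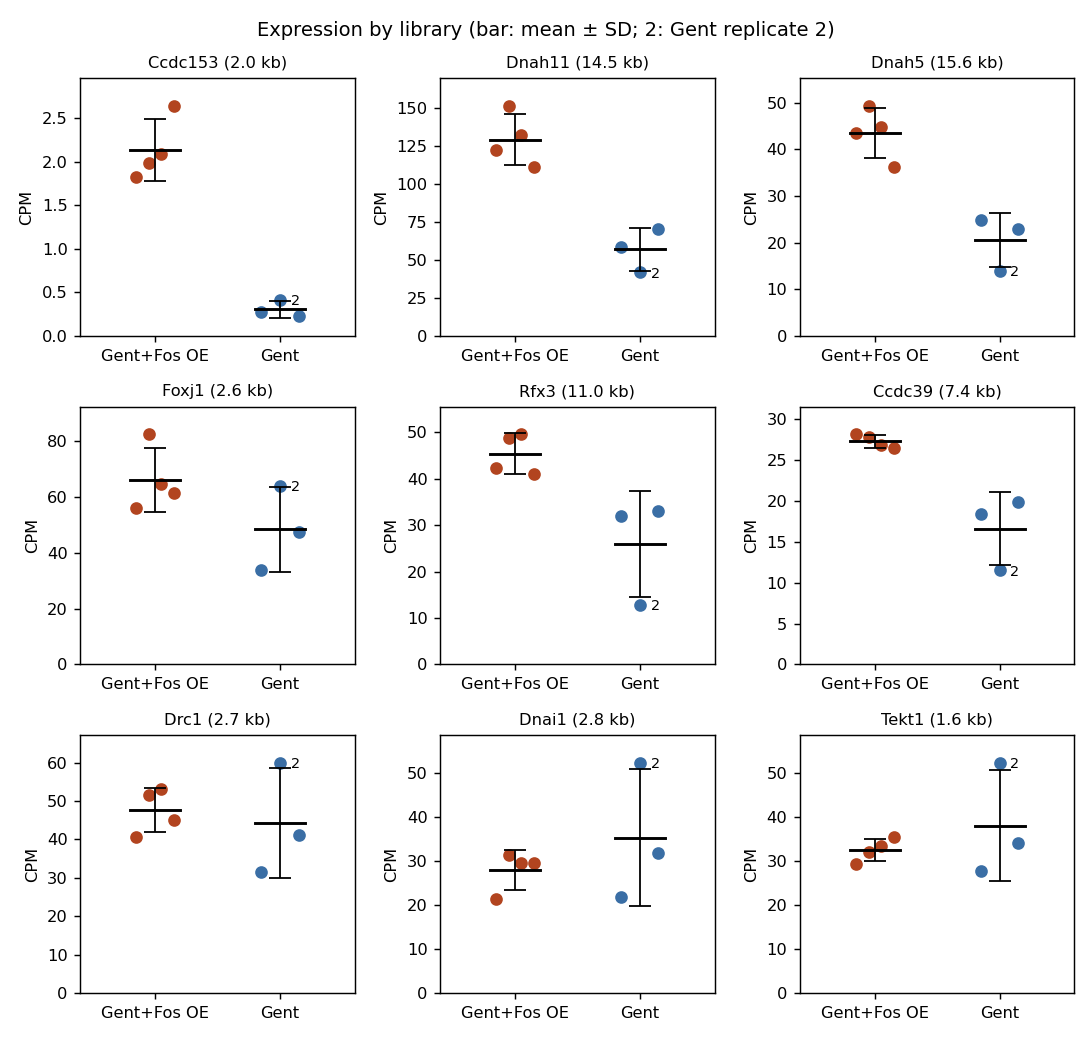
TMM-normalized CPM (y axis, from 0) of 9 axoneme genes in each Gent+Fos OE (red) and Gent (blue) library, with the mean and SD of each group; the digit 2 marks Gent replicate 2. Ccdc153, Dnah11, Dnah5, Rfx3 and Ccdc39 do not overlap between groups, and in Drc1, Dnai1 and Tekt1 Gent replicate 2 is the highest library.

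In the nexin-dynein link and ruler group, Ccdc153 was called, Ccdc39 had an unadjusted p of 0.00251, and Drc1 and Ccdc40 overlapped between groups. Ccdc153 (ENSMUSG00000070306, chromosome 9, 44240676 to 44247306, plus strand) had 56, 65, 66 and 74 reads in Gent+Fos OE and 8, 13 and 8 reads in Gent. As CPM these were 1.82, 1.99, 2.09 and 2.64 against 0.274, 0.417 and 0.231. Every Gent+Fos OE library was more than 4 times as high as the highest Gent library. The log2 fold change of 2.78 (SE 0.38, adjusted p = 0.00647; two-sided exact permutation p = 0.0286, the smallest possible) became 2.92 (SE 0.38, adjusted p = 0.00191) with length trends removed. It passed the filter on low counts, 0.319 CPM in at least 3 libraries, through Gent+Fos OE, since 1 of 3 Gent libraries reached that level; the other 30 tested axoneme genes reached it in every library. With no filter its adjusted p was 0.00107, and with at least 10 counts asked of every library it was not tested. Its Gent values rest on few reads, and its level per kilobase of exon (0.664 CPM per kb over the 7 libraries) stood at percentile 18.4 of the tested genes. The size held with any library left out (2.61 to 3.06), but the call did not. Without each library in turn the adjusted p was 0.0214, 0.0204, 0.03 and 0.0205 for Gent+Fos OE replicates 1 to 4 and 0.0159, 0.00437 and 0.0317 for Gent replicates 1 to 3.

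Ccdc153 shares no exonic bases with another gene. Its nearest tested neighbours were looked up after its value had been seen. Cbl, which ends 6627 bp before it, differed by 0.39 (SE 0.26, adjusted p = 0.356) and Nlrx1, which begins 5411 bp after it, by -0.26 (SE 0.17, adjusted p = 0.341). Neither was called.

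Ccdc39 and Ccdc40 form the molecular ruler that spaces arms and spokes along the doublet. Ccdc39 (chromosome 3, 33812362 to 33844310) gave 28.1, 27.8, 26.8 and 26.4 CPM in Gent+Fos OE, within a narrow range, and 18.4, 11.5 and 19.9 CPM in Gent. It differed by 0.71 (SE 0.18, adjusted p = 0.0754), and by 0.56 (SE 0.14, adjusted p = 0.0525) with length trends removed; 16.9% of its exonic bases overlap Ttc14. Ccdc40, its partner of similar length, differed by -0.03 (SE 0.16, adjusted p = 0.92), with 29.9 to 41.3 CPM against 29.8 to 42.9 CPM. Drc1, the scaffold of the nexin-dynein complex (chromosome 5, 30281388 to 30366695), gave 40.7, 51.5, 53.1 and 45.1 CPM against 31.6, 59.9 and 41.2 CPM, a difference of 0.11 (SE 0.20, adjusted p = 0.763). Per kilobase it was the third most abundant axoneme gene, at 17.2 CPM per kb.

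Of the central pair, 2 of 5 tested genes, Hydin and Cfap54, were higher at an unadjusted p under 0.05 and none was called. Both are over 10 kb, where 36.5% of all genes were higher by that p. Hydin, a large protein of the central pair projection (chromosome 8, 110266977 to 110610253), gave 32.7, 36.8, 26.2 and 23.2 CPM in Gent+Fos OE and 19.1, 18.2 and 22.0 CPM in Gent. The groups were separated by a narrow gap. Its log2 fold change of 0.59 (SE 0.18, adjusted p = 0.108) was 0.08 (SE 0.19, adjusted p = 0.833) with length trends removed. Cfap54 (chromosome 10, 92775619 to 93081618) gave 10.1, 11.2, 10.6 and 10 CPM against 9.34, 6.83 and 7.63 CPM, or 0.40 (SE 0.16, adjusted p = 0.175), and 0.00 with length trends removed. Spag16 differed by 0.61 (SE 0.35, adjusted p = 0.291), Spag6l by 0.29 (SE 0.18) and Ak7 by -0.11 (SE 0.44), and each overlapped between groups. With 1 library left out Spag16 ranged from 0.37 to 1.16 (the highest without Gent replicate 3) and Spag6l from 0.13 to 0.50 (the highest without Gent replicate 2). Spag6l has a close copy, Spag6, and reads that map to both are not in its counts. Spag17 had 0 to 8 reads in a library and was not tested. Ak7 had 12 to 45 reads.

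The radial spoke genes Rsph1, Rsph4a and Rsph9 differed by 0.11, 0.25 and -0.32 on the log2 scale, and none had an unadjusted p under 0.05. Rsph4a, a spoke head protein, was higher in each Gent+Fos OE library (7.75 to 9.61 CPM) than in any Gent library (5.78 to 7.71 CPM), by a margin much smaller than the range within a group. All 5 doublet wall genes had negative values: -0.22 for Tekt1, -0.40 for Tekt2, -0.53 for Tekt4, -0.10 for Cfap52 and -0.29 for Cfap126, with unadjusted p between 0.0543 and 0.566. Tekt2 had the lowest of these, and its unadjusted p was 0.0421 with no filter on low counts and 0.0492 with upper quartile normalization, and its adjusted p was 0.049 without Gent replicate 1. Tekt1, a filament-forming tektin of the doublet wall (chromosome 11, 72344722 to 72362442), gave 29.3, 32.1, 33.4 and 35.3 CPM in Gent+Fos OE and 27.7, 52.2 and 34.1 CPM in Gent. Here 1 library, Gent replicate 2, was far above the rest, and the adjusted p was 0.487. At 21.5 CPM per kb Tekt1 was the second most abundant gene of the list. Without Gent replicate 2 the median of the 5 was 0.03, with Tekt2 and Tekt4 still below 0 at -0.18 and -0.16. Zmynd10, a cytoplasmic factor needed to assemble dynein arms, gave 3.16, 3.09, 2.56 and 2.99 CPM against 2.64, 6.60 and 2.77 CPM (-0.44, SE 0.33, adjusted p = 0.413), and 0.12 without Gent replicate 2.

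By edgeR with all 7 libraries, none of the 3 regulators had an adjusted p under 0.05. Foxj1 (ENSMUSG00000034227, chromosome 11, 116330704 to 116335399) was the most abundant gene of the list per length, at 22.3 CPM per kb, percentile 87 of the tested genes. It gave 56.1, 82.3, 64.5 and 61.4 CPM in Gent+Fos OE and 33.8, 64.0 and 47.3 CPM in Gent. Gent replicate 2 lay within the Gent+Fos OE range and the other Gent libraries below it. Its log2 fold change was 0.45 (SE 0.21, adjusted p = 0.214; exact permutation p = 0.171), 0.55 (SE 0.18, adjusted p = 0.106) with length trends removed, and 0.70 (adjusted p = 0.0539) without Gent replicate 2. It was 0.25 (adjusted p = 0.373) without Gent replicate 1 and 0.32 (adjusted p = 0.43) without Gent+Fos OE replicate 2. With length trends removed and no Gent replicate 2, a setting chosen after seeing the data, it was 0.72 (SE 0.17, adjusted p = 0.0433).

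Rfx3 (chromosome 19, 27761721 to 28011166) gave 42.2, 48.8, 49.5 and 41.1 CPM in Gent+Fos OE and 31.9, 12.8 and 33.1 CPM in Gent, so the groups were separate and Gent replicate 2 was the lowest of all. It differed by 0.81 (SE 0.27, adjusted p = 0.131), by 0.56 (SE 0.19, adjusted p = 0.119) with length trends removed, and by 0.48 (adjusted p = 0.0537) without Gent replicate 2. With both changes, the setting chosen after seeing the data, Rfx3 was at 0.33 (SE 0.12, adjusted p = 0.15). DESeq2 gave it an adjusted p of 0.0433. Rfx2 (chromosome 17, 56775897 to 56831013) gave 11.8, 10.9, 8.42 and 8.77 CPM against 6.64, 8.72 and 10.4 CPM, a difference of 0.22 (SE 0.20, adjusted p = 0.514) with overlapping groups.

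Length ordered both the libraries and the genes. Of the 9 tested axoneme genes over 10 kb (the 6 heavy chains, Hydin, Cfap54 and Rfx3), 8 were higher at an unadjusted p under 0.05, but so were 36.5% of all 1475 genes of that length. Their median log2 fold change was 0.68, against 0.35 for all genes of that length. Among the 9 genes between the median length of 4084 bp and 10 kb it was 0.29 against 0.09, and 3 were higher by that p against 13.2% of all. Among the 13 genes up to the median length it was -0.22 against -0.17, and 1, Ccdc153, was higher by that p, against 4.99% of all. Gent replicate 2 was the lowest of the 7 libraries in 7 of the 9 long genes and the highest in 10 of the 13 short ones. In all genes it was lowest in 1153 of the 1475 long and highest in 4126 of the 8578 short.

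**Figure D3:**
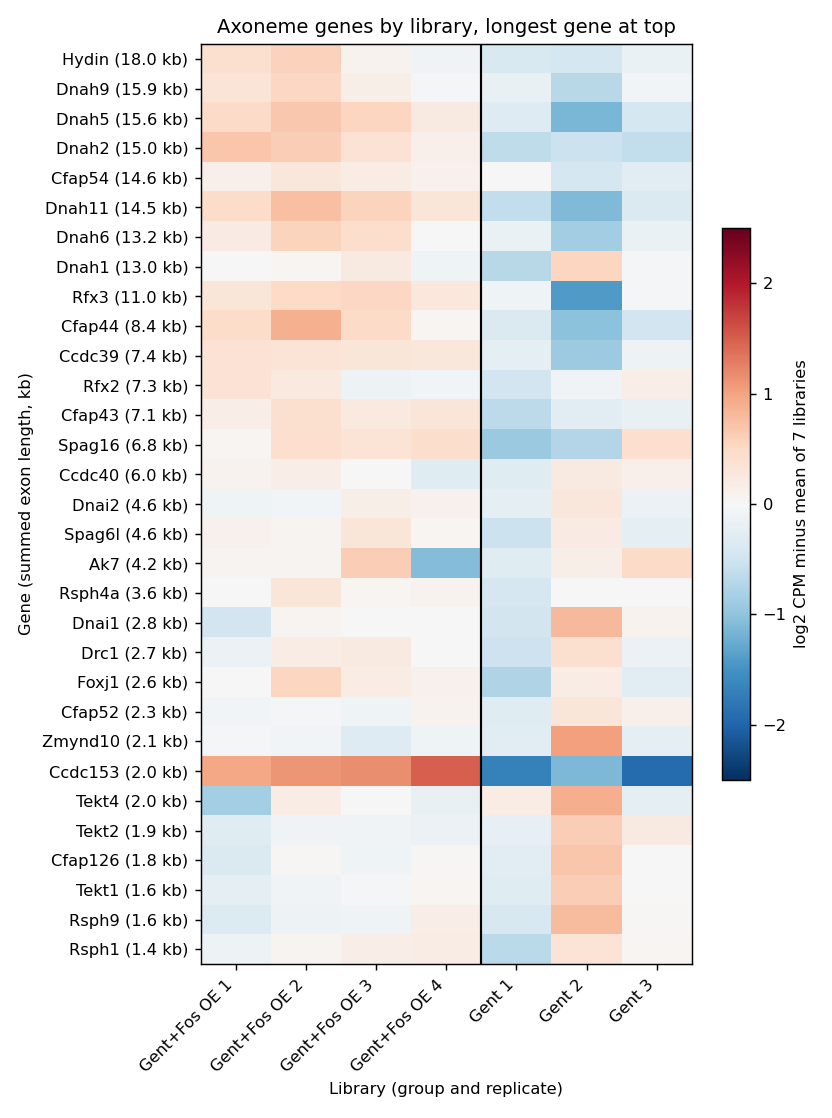
Log2 CPM of each axoneme gene (rows, longest at the top, with exon length in kb) in each library (columns) minus the gene's mean over the 7 libraries; red is higher and blue lower. Gent replicate 2 is blue for most long genes and red for most short ones, and Ccdc153 separates the groups most sharply.

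With length trends removed the median of the 31 genes was 0.12, against -0.05 for all genes. In this setting 10 axoneme genes were higher at an unadjusted p under 0.05 (Dnah5, Dnah11, Dnah2, Dnah6, Cfap43, Cfap44, Ccdc39, Ccdc153, Foxj1 and Rfx3) and 0 lower, against 7.94% of all genes higher and 15.7% lower. Hydin, Cfap54 and Dnah9 were no longer among them, and Foxj1 was added. Ccdc153 was again the 1 called gene, against 0.787% of all genes. The median of the 9 genes over 10 kb was 0.33, against -0.01 for all genes of that length. When Gent replicate 2 was left out, 3 were called (Ccdc153, Dnah11 and Dnah5), where 0.787% of all genes were called, and the median was 0.37. Across the 31 genes, which are not independent replicates and share the libraries, the fold change had a Spearman's rho with length of 0.66, or 0.56 without Gent replicate 2 and 0.39 with length trends removed.

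**Figure D4:**
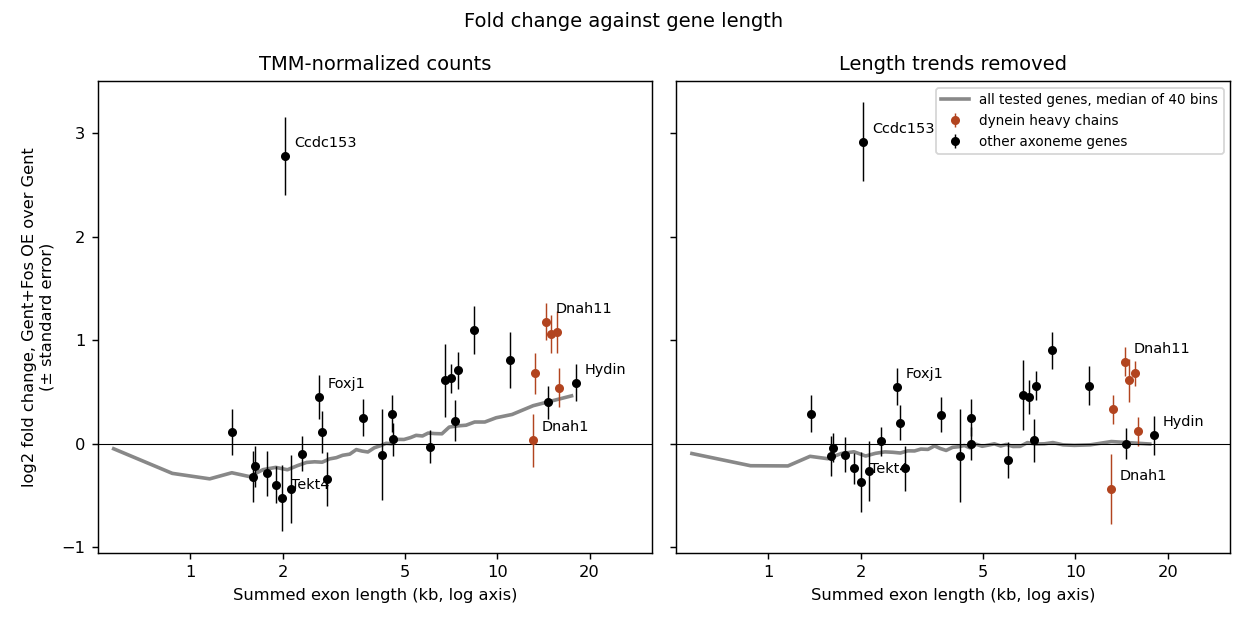
Log2 fold change with its standard error (y axis) against exon length (x axis, log scale) for the 31 axoneme genes, with dynein heavy chains in red, before (left) and after (right) length trends were removed; the grey line joins medians of 40 length bins of all tested genes. The grey line climbs with length on the left and is flatter on the right, below 0 for short genes and near 0 for long ones. On the right Ccdc153 is at 2.92, Dnah11 at 0.79 and Hydin at 0.08.

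Other genes of the cilium were taken from lists that leave out the 32. Of 117 wider motile cilium genes found in the counts (further axoneme components, dynein preassembly factors and the multiciliation programme), 105 were tested and edgeR called 0. DESeq2 called 4, all higher (Dnah7b, Cfap47, Spef2 and Mak), where 3.90% of all genes were called. At an unadjusted p under 0.05, 20 were higher and 5 lower by edgeR, against 11.1% and 13.4% of all genes, and 14 were higher and 7 lower with length trends removed, where 7.94% of all genes were higher and 15.7% lower. The median log2 fold change was 0.09, or 0.07 with length trends removed and 0.25 without Gent replicate 2.

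Of 79 tested further axoneme genes, Mak, a kinase of the ciliary axoneme, had an adjusted p under 0.05 (log2 fold change 0.88, SE 0.18, adjusted p = 0.0427; 24.7 to 33.7 CPM against 12.6 to 20.3 CPM). The largest positive values were Lrriq1 at 1.42 (SE 0.44, adjusted p = 0.114) and Cfap47, a central pair protein, at 1.10 (SE 0.28, adjusted p = 0.0736). The largest negative values were the inner arm heavy chain Dnah7a at -0.84 (SE 0.40, adjusted p = 0.218), which at 12767 bp went against the length trend, and Ak8 at -0.65 (SE 0.26, adjusted p = 0.167), or -0.28 without Gent replicate 2. Sntn, the gene of a protein at the tip of motile cilia in airway epithelium, had no reads in any library.

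Dynein preassembly factors, which fold and build the arms in the cytoplasm, had a median of -0.06 over 17 genes, or 0.07 without Gent replicate 2. The largest were Pih1d2 (0.43, SE 0.19, adjusted p = 0.205) and Dnaaf3 (0.36, SE 0.29, adjusted p = 0.442), and the lowest Pih1d1 (-0.69, SE 0.21, adjusted p = 0.114) and Daw1 (-0.51, SE 0.42, adjusted p = 0.46). Without Gent replicate 2 Dnaaf3 was at 0.72 and Pih1d1 at -0.33.

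The multiciliation programme, which drives centriole amplification in cells with many cilia, was uneven in level. Of its 14 genes other than Foxj1, 8 had a mean under 1 CPM and 5 were not tested: Gmnc (0 to 2 reads in a library), Mcidas (0 to 4), Cdc20b (0 to 2), Foxn4 (3 to 10) and Trp73 (0 to 18). The other 6 had means of 1.56 to 82.2 CPM, with Tfdp1, E2f4 and E2f5, which also serve the cell cycle, at the top. At 1 CPM or more, the largest and lowest values were Deup1 at 0.13 (SE 0.34), Cep152 at 0.11 (SE 0.17), E2f4 at -0.10 (SE 0.12) and E2f5 at -0.07 (SE 0.12). In the same order they were 0.28, -0.04, -0.02 and -0.10 without Gent replicate 2. Further RFX genes showed 0.44 (SE 0.24, adjusted p = 0.264) for Rfx5 and 0.40 (SE 0.19, adjusted p = 0.222) for Rfx7, which was 0.02 with length trends removed. Without Gent replicate 2 these were 0.16 and 0.18. Rfx4 and Rfx8 were too low to test.

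Genes of intraflagellar transport and the basal body, which serve all cilia, had a median of 0.20 over 46 genes, with 0 called by edgeR and by DESeq2. By unadjusted p under 0.05, 13 were higher and 0 lower, against 11.1% and 13.4% of all genes. After length trends were removed 5 were higher and 1 lower, against 7.94% and 15.7% of all genes, and the median was 0.10. Cep290, a transition zone protein, differed by 0.74 (SE 0.22, adjusted p = 0.105) and the retrograde transport motor Dync2h1 by 0.70 (SE 0.21, adjusted p = 0.109), and both are over 10 kb. With length trends removed they were at 0.46 and 0.31, and without Gent replicate 2 at 0.49 and 0.45. Arl3 and Ift27 were lowest, at -0.35 (SE 0.22) and -0.34 (SE 0.22), and at -0.01 and -0.00 without Gent replicate 2.

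Motile cilia also occur in middle ear and airway epithelium and in ependyma, so their markers were checked. Of 12 secretory markers of respiratory or middle ear epithelium, 10 had a mean under 1 CPM, Scgb1a1, Muc5b and Bpifa1 among them. The list's summed level was 122 to 189 CPM in Gent+Fos OE and 201 to 411 CPM in Gent, most of it Reg3g (120 to 188 CPM against 195 to 406 CPM). Ltf of that list was at -2.60 (SE 0.54, adjusted p = 0.0427). Of 9 ependymal and choroid plexus markers, 8 were tested, 0 had an unadjusted p under 0.05, and their sums of 58.9 to 74.1 CPM and 54.8 to 68 CPM overlapped. Of these 9, 4 had a mean under 1 CPM (Ttr, which was not tested, Folr1, Otx2 and Kl). The sums also hold Enkur, which is on the further axoneme list too, at 18.4 to 27.2 CPM against 15.7 to 28.1 CPM. This list can therefore say little about ependyma. Stratified epithelium markers summed to 107 to 124 CPM in Gent+Fos OE and 36 to 70.3 CPM in Gent. Of their 12 genes 7 were tested and Crct1 (4.16, SE 0.39, adjusted p = 0.0013) and Aqp3 (4.08, SE 0.40, adjusted p = 0.00152) were called higher, while the defining keratins Krt5 and Krt14 were under 1 CPM and Krt6a was at 0. Of 7 macrophage markers 5 were lower at an unadjusted p under 0.05, against 13.4% of all genes, and the list's sums were 707 to 1233 CPM against 1342 to 1668 CPM. Of 12 supporting cell markers 6 had values above 0 and 6 below, with a median of 0.00. At an unadjusted p under 0.05, 4 were higher and 1 lower, against 11.1% and 13.4% of all genes. With length trends removed 4 were higher and 3 lower by that p, against 7.94% and 15.7% of all genes. Their sums were 2162 to 2741 CPM against 1557 to 2075 CPM. Otog, called higher, gave 1065 ± 256 CPM (SD, n = 4) of the supporting cell sums against 447 ± 17.6 CPM (SD, n = 3). Its exons span 10349 bp, and its log2 fold change of 1.25 was 0.94 with length trends removed (adjusted p = 0.0152), where it was not called. Otogl was at 0.79 (SE 0.21, adjusted p = 0.0792) and Tectb at -1.39 (SE 0.27, adjusted p = 0.0348). Mesenchyme, neuron, and Schwann cell and glia lists overlapped between groups in their sums, and 0 of their genes were called. Of 8 mesenchyme markers 0 were higher and 2 lower (Dcn and Lum) at an unadjusted p under 0.05, against 11.1% and 13.4% of all genes. With length trends removed 0 were higher and 4 lower (Col1a1, Col1a2, Dcn and Lum), against 7.94% and 15.7% of all genes, with a median of -0.44. The part of these cell types in the axoneme values was not tested.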

How the data were processed

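RNA was sequenced as paired-end reads from pools of 12 utricles. The deposited values are raw counts of reads per gene. Per the file headers they were made by featureCounts 2.0.6 on mm10 without strand, and each mate of a read pair was a count of its own, so counting precision is lower than the counts imply. Reads mapping to several places or several genes were left out. The submitters' processing notes name Trim Galore 0.6.10 and HISAT2 2.2.1. The methods name another genome, mm39, and 3 replicates per condition, and all 7 labelled libraries were used here.

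Counts were analysed with edgeR 4.0.16 (filterByExpr, TMM, quasi-likelihood F-test) in R 4.3.3. Fold changes carry standard errors from the fit. Means over libraries are of TMM-normalized CPM, and CPM per kb divides by summed exon length. The exact permutation tests are two-sided, on mean log2 CPM. The length correction removed a loess trend (span 0.3) per library. Alternatives were DESeq2 1.42.0, limma-voom (limma 3.58.1), RLE and upper quartile normalization, other filters, a replicate block, a looser limit and leaving out each library. Scripts were tested on simulated data. The members and gene lists were chosen with earlier results of these data known. Full values are given for members called or at an unadjusted p under 0.05, the 3 most abundant per kb and the regulators; in other cilium lists, for called genes and the 2 largest differences each way at 1 CPM or more.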

Additional observations from a re-analysis of the deposited data

Results flagged for a closer look

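One value stood far from the others of its group. Spag17, a central pair gene that was too low to test, had 0.285 CPM in Gent+Fos OE replicate 4 against 0.095 to 0.122 CPM in the other 3 Gent+Fos OE libraries, by Dixon's test at the 95% level. This rests on 8 reads in that library. Of the 32 genes checked in this way 1 passed, and chance alone passes about 1 in 20.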

How the results depend on the processing

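The direction of the median over the axoneme genes was kept under all 17 refits, with values moving by less than the spread between libraries (SD 0.17 on the log2 scale). Of the single-gene values under these refits, 473 kept direction and call, 32 changed sign, 9 lost a call and 12 gained one. Over all genes, 71 were called at first, 611 with DESeq2, 204 with no filter on low counts, 135 with length trends removed, 177 with length trends removed and no Gent replicate 2 (chosen after seeing the data), 319 at an adjusted p under 0.05 with no fold limit, and 5 to 138 with 1 library left out. Axoneme genes called numbered 7 with DESeq2, 0 with limma-voom (Ccdc153 at an adjusted p of 0.0116), 2 with upper quartile normalization, 4 with no filter, 0 with at least 10 counts in every library (which removes Ccdc153), 5 at the looser limit, and 0 to 3 with 1 library left out. Wider motile cilium genes called were 0, but 4 with DESeq2 and 1 at the looser limit.

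Replicate numbers did not pair the libraries. Same-numbered libraries correlated at 0.05, -0.03 and 0.02 in their deviations from the group means. With the replicate block, 0 genes were called, axoneme genes included, and with the replicate block and length trends removed 44 genes were called, 0 of them axoneme genes. Fos was at 2.03 with the block (adjusted p = 0.0296).

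Signs changed in 12 genes that were not called. With 1 library left out, the ranges were -0.37 to 0.13 for Ak7, -0.17 to 0.07 for Ccdc40, -0.48 to 0.04 for Cfap126, -0.25 to 0.03 for Cfap52, -0.22 to 0.38 for Dnah1, -0.59 to 0.06 for Dnai1, -0.06 to 0.21 for Dnai2, -0.09 to 0.38 for Drc1, -0.13 to 0.34 for Rsph1, -0.56 to 0.08 for Rsph9, -0.41 to 0.07 for Tekt1 and -0.66 to 0.12 for Zmynd10. With length trends removed Dnah1 was at -0.44 and Cfap52 at 0.02, and with upper quartile normalization Dnah1 was at -0.01. With the replicate block Ak7 was at 0.14 and Ccdc40 at 0.07, and with both changes Ak7 was at 0.13, Dnah1 at -0.23 and Dnai2 at -0.01. With length trends removed and no Gent replicate 2, Ccdc40 was at 0.02, Cfap126 at 0.08, Cfap52 at 0.05, Dnai1 at 0.08, Rsph9 at 0.11, Tekt1 at 0.11 and Zmynd10 at 0.15. The cause was not tested. Precision is limited by 4 and 3 pools, and for Ccdc153, Ak7 and Spag17 by few reads.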
